A study of Mus musculus with 16 samples.

Results

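Tumors of mice treated with agonist anti-CD40 Ab and no chemotherapy were compared with control tumors across all genes on the array. The comparison used the 4 arrays labelled Vehicle+CD40 mIgG1 and the 4 labelled Vehicle+control IgG, 8 of the 16 arrays of the study. All mice carried the same PDA30364 line, a mouse pancreatic ductal adenocarcinoma line, whose cells had been mixed with Matrigel and placed under the flank skin of C57BL/6-Ly5.1 mice aged 6 to 12 weeks. Anti-CD40 mice received the vehicle of gemcitabine (GEM) at 3 times (day 1, day 5, day 12 of treatment), and agonist anti-CD40 mIgG1 at 4 times (day 3, day 4, day 6, day 14). Control mice received the same vehicle and an isotype control IgG. Mice were sacrificed on day 22 or 23 after inoculation, and bulk RNA of the frozen tumor was hybridised. Treatment days and days after inoculation have different starts, since treatment in the paper began in general 1 week after implant. A single transplanted line stands for the tumor, so the arrays speak for 1 line in different hosts. The other 8 arrays, from mice given GEM at 120 mg per kg with anti-CD40 mIgG1 or with control IgG, are used below to look at the same genes in mice that the comparison does not contain.

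CD40 is a receptor of the TNF receptor family on dendritic cells, macrophages and B cells, and is also found on endothelial and some epithelial cells. Its ligand, CD40L, is displayed by activated helper T cells, and receptor engagement signals through TRAF adaptors to NF-kB. An agonist Ab replaces the ligand, and is known to mature dendritic cells and to activate macrophages. Activated T cells and NK cells then release interferon gamma (IFNγ), which acts on neighbouring cells, while type I interferons are made by many cell types and induce antiviral genes.

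Values are RMA signals on the log2 scale, so a difference of 1 is a factor of 2. Over the 8 arrays no probe set passed an adjusted p under 0.05 by limma with Benjamini-Hochberg adjustment (0 of 45037, 0%), and the lowest adjusted p was 0.28. An unadjusted p under 0.05 was reached by 2739 probe sets (6.08%), of which 1382 were higher and 1357 lower in anti-CD40 tumors, against 2251.8 probe sets that 5% of all would make. With each of 18193 genes represented by its brightest probe set, the same unadjusted threshold was reached by 641 genes with higher values (3.52%) and 681 with lower values (3.74%). The 4 values of 1 group lay entirely above those of the other for 302 genes higher in anti-CD40 tumors (1.66%) and 319 lower (1.75%). In what follows, "higher" and "lower" mark an unadjusted p under 0.05 and no more. Counts in gene lists are to be read against these background shares. The lists were chosen with earlier results of these data known, so a count above background describes a list and is no test of it. The median change of all genes was -0.02, and 55 genes had a change of at least 1 and 45 of -1 or below.

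Some tumors stood apart in the tissue around the tumor. Skin keratinocyte genes averaged 5.35, 6.89, 5.21 and 5.22 in anti-CD40 replicates 1 to 4, and 5.28, 8.46, 5.42 and 5.07 in control replicates 1 to 4. Replicate 2 of both groups therefore held the most skin signal, and Krt10, a keratin of the differentiated epidermis, was at 7.69 in anti-CD40 replicate 2 and at 11 in control replicate 2. Skeletal muscle genes averaged 4.90, 5.54, 4.86 and 6.10 in anti-CD40 tumors, against 5.28, 6.38, 6.52 and 7.27 in controls. Of 18 muscle genes, 10 were lower in anti-CD40 tumors, with a median change of -0.96, and Acta1, skeletal muscle actin, was at 5.87, 7.89, 5.69 and 8.36 in anti-CD40 tumors, against 7.27, 9.03, 9.02 and 9.85 in controls. Their part in the results below was not tested beyond leaving tumors out. The count of lower muscle genes was 7 without both skin-rich tumors and 3 without anti-CD40 replicate 1, anti-CD40 replicate 3, control replicate 3 or control replicate 4, 5 without control replicate 2 and 16 without control replicate 1, and 4 of the 9 genes that remained with dim probe sets left out. Genes of the tumor epithelium averaged 11.49, 11.48, 10.77 and 11.16 in anti-CD40 tumors, against 11.30, 11.37, 11.27 and 11.10 in controls, and none of 15 was higher or lower. In bulk tumor RNA, fewer cells of a type and less RNA per cell cannot be told apart.

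Among the 131 genes that were higher in anti-CD40 tumors without overlap and at an unadjusted p under 0.01, those with the largest change included genes of activated myeloid cells and of the interferon response. Saa3, an acute phase serum amyloid made by macrophages and stroma, was at 9.08, 8.05, 8.92 and 10.92 in anti-CD40 tumors, against 6.17, 7.56, 6.95 and 6.93 in controls. No control value reached the lowest anti-CD40 value, and the difference was 2.34 ± 0.54 (SE, n = 4 each) with an unadjusted p of 0.00174 and an adjusted p of 0.72. Clec4d, a C-type lectin receptor for fungal and mycobacterial glycolipids on myeloid cells, gave the lowest p of all probe sets, with 7.32, 7.22, 7.67 and 7.85 in anti-CD40 tumors and 6.33, 6.30, 6.11 and 5.97 in controls, a difference of 1.34 ± 0.15 (SE; adjusted p = 0.28 by limma). Clec4e, its neighbour receptor Mincle, was at 6.20, 6.95, 5.94 and 7.39 in anti-CD40 tumors, against 5.44, 5.49, 5.41 and 5.04 in controls. For Clec4e a second probe set gave a change of 0.38, against 1.28 for the brighter one.

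Other genes of this group have roles in sensing and in the metabolism of inflamed macrophages. Acod1, which makes itaconate from a Krebs cycle intermediate, was at 8.01, 8.08, 8.05 and 8.68 in anti-CD40 tumors, against 7.02, 6.55, 6.46 and 7.18 in controls. The anti-CD40 values of Fpr2, a chemotactic receptor for formyl peptides and serum amyloid, were 7.20, 7.35, 7.47 and 8.26, against 5.76, 6.20, 6.09 and 6.31 in controls. Both genes were separate in all 8 tumors, with changes of 1.40 ± 0.20 for Acod1 and 1.48 ± 0.22 for Fpr2 (SE). Chil1, a chitinase-like protein of macrophages and epithelia, was at 7.16, 7.73, 6.30 and 8.15 in anti-CD40 tumors, against 5.64, 6.21, 5.46 and 4.91 in controls, and differed by 1.78 ± 0.39 (SE).

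**Figure D1:**
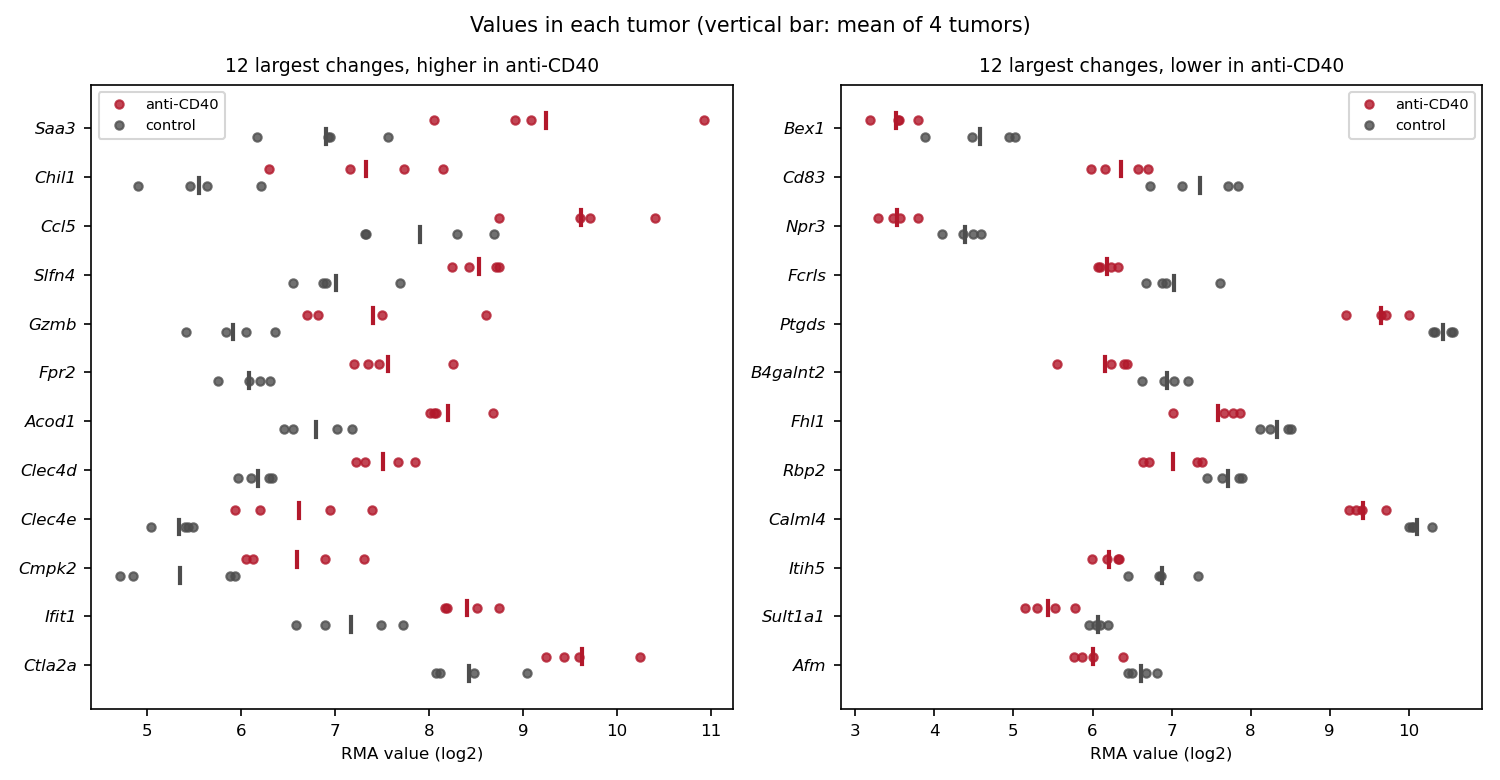
RMA value on the log2 scale (x axis) of the 12 genes with the largest change in each direction among those without overlap at an unadjusted p under 0.01, with each of the 4 anti-CD40 tumors (red, upper row of each gene) and 4 control tumors (grey, lower row) as a point and the group mean as a vertical bar. The groups do not overlap for any of these genes, as the rule that chose them required, and the largest change shown is that of Saa3 (2.34).

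Over the list of 18 inflammatory myeloid genes, 12 were higher and none lower in anti-CD40 tumors, with a median change of 0.72, and 7 did not overlap between groups. Saa3, Clec4d, Clec4e, Acod1 and Fpr2, given above for their large changes, are members of this list, so its count is not separate from theirs. The list averaged 7.26, 7.23, 7.30 and 7.70 in anti-CD40 tumors, against 6.61, 6.70, 6.40 and 6.57 in controls, so that all 4 treated tumors lay above all 4 controls. Besides the genes above, Slfn4 (1.53), Casp1 (0.98), Casp4 (0.94), Il6 (0.75), Il1b (0.67), Il1a (0.57) and the interleukin 1 antagonist Il1rn (0.42) were among the higher members. The count stayed between 10 and 13 of 18 whichever tumor was left out, and was 10 without both skin-rich tumors. The remaining members showed small changes. Nos2, the inducible nitric oxide synthase, differed by -0.05, Tnf by 0.14, the inflammasome sensor Nlrp3 by 0.07 and Il18 by -0.29.

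Type I interferon response genes were the list with the most members separate between groups. Of 22 genes, 17 were higher in anti-CD40 tumors and none was lower, 12 did not overlap and the median change was 0.87. The list averaged 8.19, 8.17, 8.39 and 8.56 in anti-CD40 tumors, against 7.93, 7.31, 7.16 and 7.89 in controls. Control replicates 2 and 3 were the lowest tumors. Between 13 and 20 of the 22 were higher whichever tumor was left out, and 13 without both skin-rich tumors, where the background was 4.31% higher and 4.08% lower genes. The count was 14 without control replicate 2 and 13 without control replicate 3, against 20 without control replicate 1 and 19 without control replicate 4.

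Irf7, the transcription factor that amplifies interferon production, was at 8.39, 8.36, 8.30 and 8.58 in anti-CD40 tumors, against 7.58, 7.01, 6.85 and 7.53 in controls, a difference of 1.17 ± 0.16 (SE; adjusted p = 0.41 by limma). Ifit1, which binds viral RNA lacking cap methylation, was at 8.19, 8.17, 8.75 and 8.51 in anti-CD40 tumors, against 7.49, 6.89, 6.59 and 7.72 in controls. The deISGylase and interferon receptor inhibitor Usp18 was at 8.70, 8.93, 9.26 and 9.25 in anti-CD40 tumors and at 8.44, 7.56, 7.51 and 8.04 in controls. These 3 genes did not overlap between groups, and the controls spread more widely than the treated tumors. The sensors of double-stranded RNA also differed, Ifih1 (MDA5) by 0.49 ± 0.10 with no overlap and Ddx58 (RIG-I) by 0.50 ± 0.20 with overlap (SE). Members that did not reach an unadjusted p of 0.05 were Mx1 (0.48), Oas2 (0.46), Irf9 (0.30), Oasl1 (0.21) and Mx2 (0.15).

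**Figure D2:**
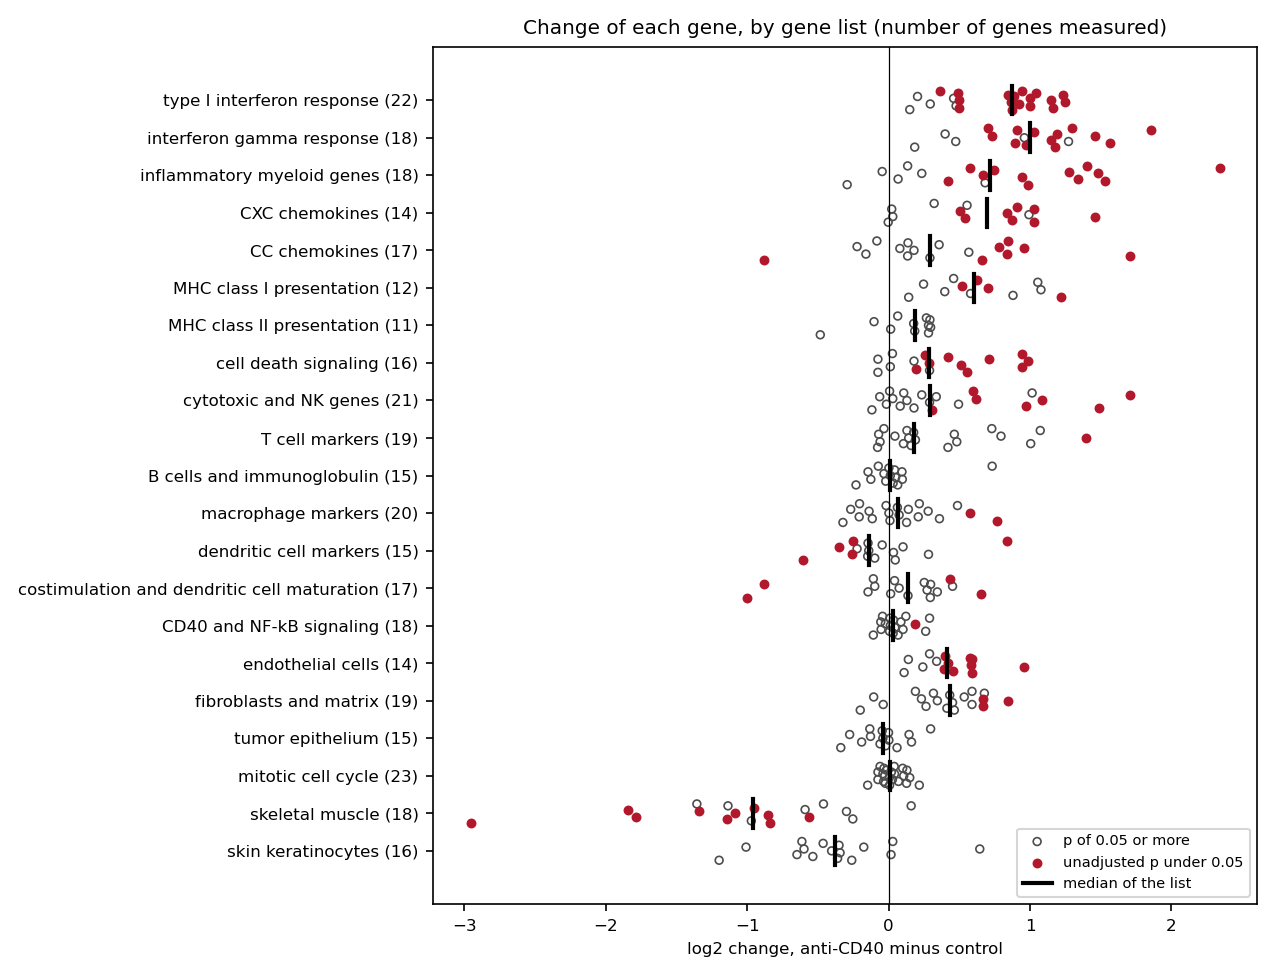
Change of each gene on the log2 scale (x axis, anti-CD40 minus control) in 21 gene lists, with the number of genes measured in brackets, filled points for an unadjusted p under 0.05, open points for the others and a bar at the median of the list. The medians of the interferon lists (0.87 and 1.00) and of the inflammatory myeloid list (0.72) lie to the right of 0, that of skeletal muscle (-0.96) to the left, and those of mitotic cell cycle and of CD40 and NF-kB signaling within 0.04 of it.

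For IFNγ response genes the controls divided into the same high and low pair as for type I genes, and further apart. Ifng itself, at low signal, was at 4.77, 5.53, 4.87 and 5.36 in anti-CD40 tumors, against 4.39, 3.59, 3.94 and 4.73 in controls, with a difference of 0.97 ± 0.26 (SE; adjusted p = 0.81 by limma) and no overlap. The list of 18 response genes averaged 9.40, 9.42, 9.11 and 9.82 in anti-CD40 tumors, against 9.09, 7.42, 7.79 and 9.39 in controls. Control replicates 1 and 4 thus lay beside the treated tumors and control replicates 2 and 3 well below them. All 18 genes had a change above 0 with a median of 1.00, and 13 were higher, but only Ifng and Iigp1 did not overlap.

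Individual members followed the same split of the controls. Cxcl9, a chemokine for activated T cells, was at 11.30, 10.95, 10.50 and 11.92 in anti-CD40 tumors, against 10.72, 8.37, 8.91 and 10.82 in controls. Ido1, which degrades tryptophan, was at 9.11, 9.36, 8.44 and 9.67 in anti-CD40 tumors, against 8.98, 6.24, 6.98 and 9.29 in controls, a difference of 1.27 ± 0.64 (SE) with a p of 0.0765. Cd274, which encodes PD-L1, was at 7.61, 7.45, 7.34 and 7.95 in anti-CD40 tumors, against 7.43, 6.57, 6.30 and 7.12 in controls. In each, control replicate 2 or 3 was the lowest tumor.

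The count of higher IFNγ response genes rested on single tumors. It was 3 of 18 without control replicate 2, control replicate 3 or anti-CD40 replicate 4, 4 without anti-CD40 replicate 1, 6 without anti-CD40 replicate 2 and 2 without both skin-rich tumors, against 15 without control replicate 1 and 17 without control replicate 4. The median change stayed above 0 in all of these fits, between 0.67 and 1.30 over all alternatives. Of 12 genes of MHC class I presentation 4 were higher, with a median change of 0.60 and no gene separate between groups. B2m, the light chain of class I, was at 13.55, 13.54, 13.66 and 13.82 in anti-CD40 tumors, against 13.57, 12.58, 12.81 and 13.54 in controls. The class I count was 0 without anti-CD40 replicate 1, anti-CD40 replicate 4, control replicate 2, control replicate 3 or both skin-rich tumors, 1 without anti-CD40 replicate 2, 8 without control replicate 1 and 11 without control replicate 4. H2-D1 and H2-K1 belong to a family of near-identical sequences, and 9 probe sets of H2-D1 gave changes between 0.00 and 0.88.

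**Figure D3:**
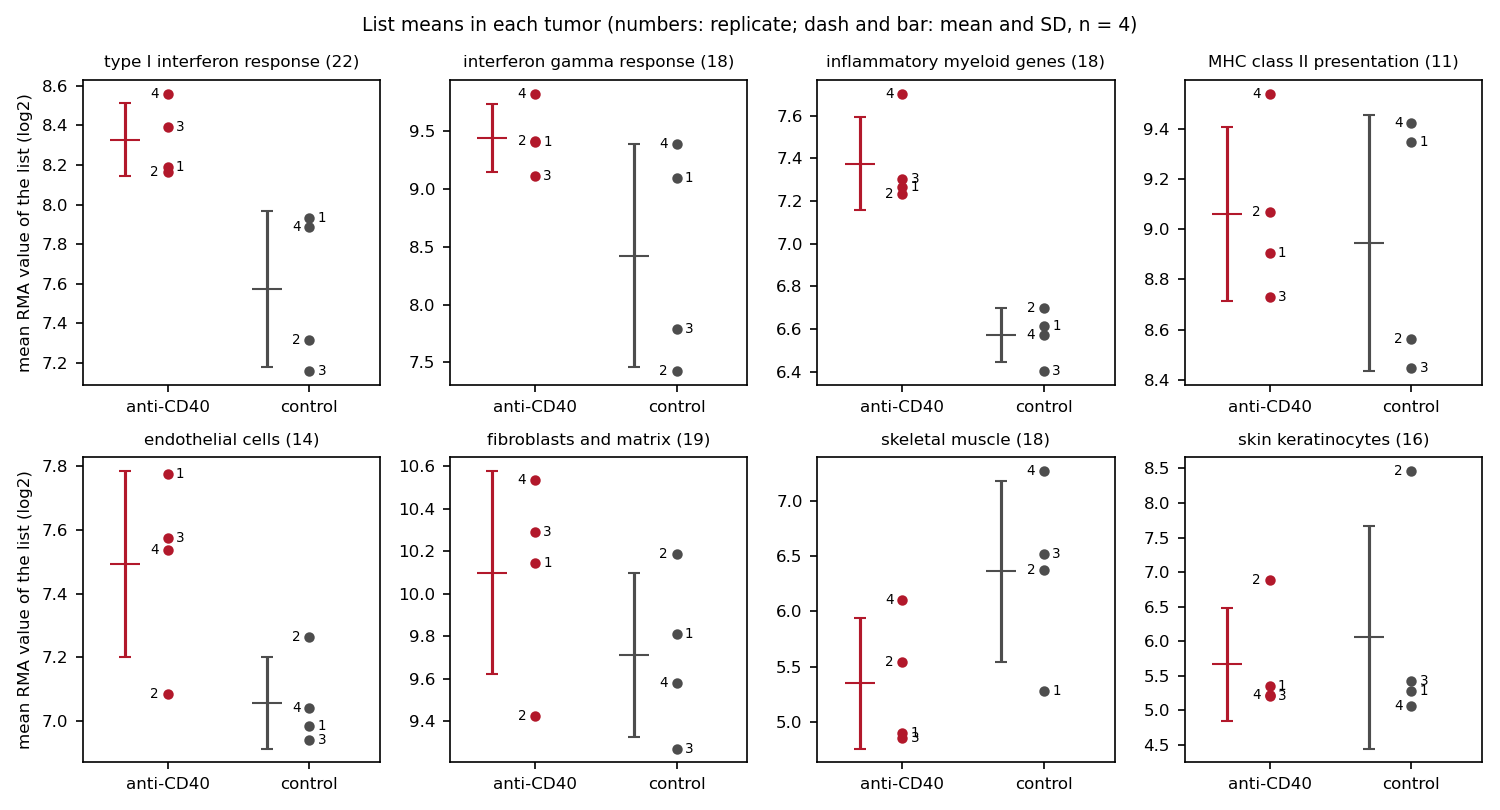
Mean RMA value on the log2 scale (y axis) of 8 gene lists in each anti-CD40 tumor (red, left) and control tumor (grey, right), with the replicate number beside each point and the group mean and SD (n = 4) as a dash with a bar. The inflammatory myeloid and type I interferon lists are separate between groups, whereas control replicates 1 and 4 lie beside the anti-CD40 tumors for the IFNγ response and control replicate 2 stands alone for skin (8.46).

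Promoters of the interferon genes are shown because members of both lists were higher together. The 250 bases before and 50 after the start of each gene, from RefSeq on GRCm38.p6, were searched on both strands for the core of the interferon-stimulated response element, GAAANNGAAA, known from promoters of type I interferon response genes, and for the gamma-activated site, TTCNNNGAA, known from promoters of IFNγ response genes. Windows were found for 15 of the 22 type I and 13 of the 18 IFNγ response genes. The first motif occurred in 8 type I genes (53.3%) and 8 IFNγ genes (61.5%), against 3.99% of 27025 genes with a window, and the second in 3 (20%) and 5 (38.5%), against 9.55%. Among genes with no match to either motif in these windows were Irf7, Cmpk2, Cxcl9 and Cd274. Capitals mark the matches to either motif in the stretches below, which are written 5′ to 3′ along the gene, end at or ahead of the start site and may hold a match in its reverse complement. Ifit1 (chr19:34640734-34640843, plus strand), Ifit3 (chr19:34583337-34583446, plus strand) and Rsad2 (chr12:26456533-26456642, minus strand), the last encoding the antiviral enzyme viperin, stand for the type I list. Irgm1 (chr11:48871421-48871530, minus strand), Igtp (chr11:58199440-58199549, plus strand), both IFNγ-induced GTPases that act on intracellular vacuoles, and Irf1 (chr11:53769853-53769962, plus strand), a transcription factor of the interferon response, stand for the IFNγ list.
Ifit1: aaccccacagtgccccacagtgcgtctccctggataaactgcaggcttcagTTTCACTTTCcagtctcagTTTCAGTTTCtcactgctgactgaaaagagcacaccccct
Ifit3: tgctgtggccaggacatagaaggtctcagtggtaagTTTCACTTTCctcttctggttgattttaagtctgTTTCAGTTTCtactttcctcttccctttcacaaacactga
Rsad2: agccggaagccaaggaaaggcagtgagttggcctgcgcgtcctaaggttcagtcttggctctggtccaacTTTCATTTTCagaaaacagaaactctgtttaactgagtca
Irgm1: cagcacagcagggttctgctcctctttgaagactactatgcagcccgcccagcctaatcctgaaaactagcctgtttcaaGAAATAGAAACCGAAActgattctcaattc
Igtp: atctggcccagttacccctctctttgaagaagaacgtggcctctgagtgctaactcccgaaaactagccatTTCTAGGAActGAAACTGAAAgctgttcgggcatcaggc
Irf1: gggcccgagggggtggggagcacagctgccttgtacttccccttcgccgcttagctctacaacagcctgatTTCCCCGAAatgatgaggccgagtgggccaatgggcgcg

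Ifit1, Ifit3 and Irgm1 each hold 2 matches to the first motif, overlapping each other in Irgm1, whereas Igtp holds 1 of each motif and Irf1 only the second. Their changes were 1.23 for Ifit1, 1.00 for Ifit3, 0.89 for Rsad2, 0.71 for Irgm1, 1.15 for Igtp and 0.40 for Irf1. Irf1 was the only one of the 6 that missed an unadjusted p of 0.05 (0.153). A match in these letters is a description of the window and no measure of binding.

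Families were also defined by their symbol, after their values had been seen, and some of their members are in the lists above. Of 8 Schlafen genes, regulators of lymphocyte and myeloid growth, 7 were higher and 5 did not overlap. Slfn4, expressed in activated macrophages and a member of the inflammatory myeloid list, was at 8.25, 8.43, 8.71 and 8.75 in anti-CD40 tumors, against 6.87, 7.69, 6.56 and 6.91 in controls. Slfn5 was at 6.75, 6.09, 6.55 and 6.89 in anti-CD40 tumors, against 5.82, 5.69, 5.46 and 5.75 in controls. Schlafen genes are close copies of each other, so part of the signal of a probe set may come from a relative. Of 8 genes of the p200 family of interferon-inducible DNA sensors, 5 were higher, with a median of 0.61, among them Ifi213 (0.68) and Ifi207 (0.82). Of 8 Gimap GTPases of lymphocytes 4 were higher, with Gimap4 at 8.64, 8.35, 8.40 and 9.31 in anti-CD40 tumors, against 7.90, 7.34, 7.25 and 8.16 in controls.

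Chemokines that draw monocytes, T cells and neutrophils were among the higher genes. Of 17 CC chemokines 6 were higher and 1 was lower in anti-CD40 tumors. Ccl2, which recruits monocytes, was at 7.83, 7.88, 7.72 and 8.31 in anti-CD40 tumors, against 7.04, 7.21, 6.99 and 7.15 in controls, a difference of 0.84 ± 0.12 (SE; adjusted p = 0.41 by limma). Ccl7, a further monocyte chemokine, was at 6.42, 5.62, 6.59 and 6.59 in anti-CD40 tumors and at 5.37, 5.59, 5.49 and 5.38 in controls. Among the 161 genes named by rule, Ccl7 alone passed an adjusted p under 0.05 in any alternative, by limma with 0.0325 and a change of 1.12 without both skin-rich tumors and with 0.0390 and 1.08 without anti-CD40 replicate 2. Both fits leave out the lowest treated value of Ccl7 (5.62), and the former also its highest control value (5.59). They therefore widen the difference by construction. Ccl5, a chemokine of T cells and NK cells, was at 9.61, 9.71, 8.75 and 10.40 in anti-CD40 tumors, against 8.69, 7.32, 7.33 and 8.30 in controls. The lower member was Ccl17, a dendritic cell product that draws CCR4+ T cells, at 5.99, 6.76, 7.31 and 6.54 in anti-CD40 tumors, against 7.27, 7.65, 7.22 and 7.99 in controls, with overlap through anti-CD40 replicate 3.

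Of 14 CXC chemokines 8 were higher and none lower, with a median of 0.70. Among them, Cxcl9, Cxcl10 and Cxcl11 are ligands of CXCR3 on T cells, and Cxcl1, Cxcl2, Cxcl3 and Ppbp attract neutrophils through CXCR2. Cxcl3 was at 7.45, 8.41, 8.34 and 8.06 in anti-CD40 tumors, against 7.07, 7.17, 6.92 and 7 in controls, and was the only member with no overlap. With anti-CD40 replicate 1 left out the count was 4, with control replicate 3 left out it was 5, and it was 8 without both skin-rich tumors. Cxcl9 and Cxcl10 are also members of the IFNγ response list, so the CXC count is not separate from the count of that list. Of 16 granulocyte genes, Itgam (0.77) and Lcn2 (0.42) were higher, Siglecf, a marker of eosinophils, was lower (-0.55), and S100a9, an abundant neutrophil protein, differed by 0.29.

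Of 21 cytotoxic and NK cell genes 7 were higher and 4 did not overlap, with a median of 0.29. Gzmb, the granzyme of activated killer cells, was at 6.82, 7.50, 6.70 and 8.61 in anti-CD40 tumors, against 6.36, 6.06, 5.42 and 5.84 in controls, a difference of 1.49 ± 0.39 (SE; adjusted p = 0.81 by limma). Tbx21, the transcription factor T-bet of type 1 lymphocytes, was at 4.47, 4.23, 4.21 and 5.05 in anti-CD40 tumors and at 4.14, 3.50, 3.81 and 4.05 in controls. The count was 4 without anti-CD40 replicate 4, control replicate 2 or both skin-rich tumors, and 4 of the 11 genes that remained with dim probe sets left out.

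Of 19 T cell markers only Cd8b1, a chain of the CD8 co-receptor, was higher, at 5.98, 6.41, 4.58 and 7.35 in anti-CD40 tumors, against 5.33, 4.14, 4.21 and 5.05 in controls. Anti-CD40 replicate 4 held the most T cell signal and anti-CD40 replicate 3 the least of the treated tumors, as Cd3d shows with 7.39, 7.61, 6.88 and 8.39 in anti-CD40 tumors, against 7.17, 6.02, 6.36 and 7.54 in controls. Without anti-CD40 replicate 3 the count was 7, without control replicate 4 it was 6, without control replicate 1 it was 4, without anti-CD40 replicate 1 it was 2, and it was 0 without anti-CD40 replicate 2, anti-CD40 replicate 4, control replicate 2 or control replicate 3. Of 14 regulatory T cell and checkpoint genes, Cd274, also a member of the IFNγ response list, was higher and Il2ra, the CD25 chain, lower (-0.16). Ctla4 differed by -0.04, Lag3 by 0.04 and Pdcd1 by 0.12. None of 15 B cell and immunoglobulin genes was higher or lower. Ms4a1 (CD20) was at 4.24, 4.64, 4.11 and 4.33 in anti-CD40 tumors and at 4.17, 4.34, 4.38 and 4.17 in controls. Ighm was read by 11 probe sets that gave changes between -0.36 and 1.01.

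The target receptor and its own pathway gave little difference on the day of sampling. Cd40 was at 6.04, 6.63, 5.89 and 6.80 in anti-CD40 tumors, against 6.11, 6.21, 5.75 and 6.13 in controls, a difference of 0.29 ± 0.20 (SE) with a p of 0.186. Of 18 genes of CD40 and NF-kB signaling only Bcl3, a co-regulator of NF-kB, was higher (0.19), and the median was 0.03. The feedback inhibitors Nfkbia (0.12) and Tnfaip3 (0.07), the non-canonical subunits Nfkb2 (0.01) and Relb (0.04) and the adaptor Traf1 (0.26) did not reach an unadjusted p of 0.05. Of 19 ligands and receptors of the TNF family 2 were higher. They were Tnfrsf9, the 4-1BB receptor of activated T cells (0.37, no overlap), and Tnfsf10, which encodes TRAIL (0.51).

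Cd83, a surface protein of mature dendritic cells and activated B cells, was at 5.98, 6.58, 6.16 and 6.70 in anti-CD40 tumors, against 7.84, 7.13, 6.73 and 7.72 in controls, a difference of -1.0 ± 0.26 (SE; adjusted p = 0.81 by limma). All 4 treated tumors lay below all 4 controls. Of 15 dendritic cell markers 4 were lower and 1 higher, with a median of -0.14. The lower ones were Flt3, the receptor that dendritic cell precursors need (-0.26), Xcr1 of cross-presenting dendritic cells (-0.35), Itgae (CD103, -0.61) and Cd209a (-0.25), all at mean signals under 6.

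Flt3 was at 5.22, 5.34, 5.28 and 5.10 in anti-CD40 tumors, against 5.47, 5.43, 5.45 and 5.62 in controls, which did not overlap. Cst3, a bright marker, also lay below the controls without overlap, at 11.93, 11.95, 11.74 and 11.96 against 12.17, 11.97, 12.04 and 11.99. Its change of -0.15 had an unadjusted p of 0.086 by limma. The single higher marker was Bst2, tetherin, which is also an interferon response gene, at 10.52, 10.35, 10.47 and 10.74 in anti-CD40 tumors, against 10.18, 9.05, 9.29 and 10.20 in controls. The count of lower markers was 3 or fewer in each fit with a tumor left out, 1 without anti-CD40 replicate 2, and 2 without control replicate 1, control replicate 4 or both skin-rich tumors. With dim probe sets left out, 8 of the 15 markers remained, of which 0 were lower, and their median was -0.03. Of 17 costimulation and maturation genes, Cd200 and Il15ra were higher and Cd83 and Ccl17 lower. Cd86 differed by 0.02, Cd80 by 0.25, Ccr7 by 0.45 and Il12b, the shared subunit of interleukin 12 and interleukin 23, by 0.27, none of them at an unadjusted p under 0.05. None of 11 MHC class II genes was higher or lower. H2-Ab1 was at 10.79, 11.02, 10.41 and 11.49 in anti-CD40 tumors, against 11.24, 10.15, 9.99 and 11.26 in controls, with the same 2 controls low as for IFNγ response genes.

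Of 20 macrophage markers, Itgam (CD11b) and Lyz2 (lysozyme) were higher, and the median was 0.07. Itgam was at 6.41, 6.08, 6.64 and 6.79 in anti-CD40 tumors, against 5.93, 5.89, 5.37 and 5.67 in controls. Adgre1, the F4/80 antigen, was at 7.35, 7.14, 7.25 and 7.78 in anti-CD40 tumors and at 7.85, 7.78, 7.10 and 7.86 in controls, a change of -0.27 with overlap, and the pan-leukocyte gene Ptprc (CD45) differed by 0.49 ± 0.31 (SE) with a p of 0.15. Among 15 genes of alternative activation, Arg1, arginase, was higher, at 10.16, 9.35, 10.72 and 10.21 in anti-CD40 tumors, against 9.09, 9.16, 9.18 and 9.08 in controls. Chil3 (Ym1) was also higher (1.04), whereas Retnla (-0.40) was lower. Fcrls, a receptor-like gene of resident macrophages, was lower without overlap, at 6.09, 6.32, 6.07 and 6.23 in anti-CD40 tumors, against 6.88, 7.61, 6.68 and 6.93 in controls.

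Genes of the death machinery had changes between -0.075 and 0.985. The largest was that of Casp1, which is also counted in the inflammatory myeloid list. Of 16 measured, 10 were higher in anti-CD40 tumors, 6 did not overlap and the median was 0.29. Casp8, which starts death receptor apoptosis, was at 10.35, 10.26, 10.43 and 10.23 in anti-CD40 tumors, against 10.07, 9.99, 10.01 and 10.07 in controls. Mlkl, the executor of necroptosis, was at 9.26, 9.16, 9.36 and 9.37 in anti-CD40 tumors and at 8.86, 8.31, 8.65 and 9.12 in controls. Zbp1, which senses Z-form nucleic acid and acts through Ripk3, was also separate (0.94), and Ripk3 itself was higher (0.42) with overlap. The brightest probe set of the inhibitor Cflar gave 0.26 and another -0.18. Counts were 5 without control replicate 2 or both skin-rich tumors, and 6 without anti-CD40 replicate 4 or control replicate 3.

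Of 14 endothelial genes 9 were higher in anti-CD40 tumors with a median of 0.41. Pecam1, CD31 of endothelial junctions, was at 7.68, 6.71, 7.25 and 7.17 in anti-CD40 tumors, against 6.53, 6.84, 6.41 and 6.70 in controls. Fibroblast and matrix genes were higher in 3 of 19, with a median of 0.43, and Col3a1 was at 12.83, 11.69, 13.03 and 12.98 in anti-CD40 tumors, against 12.13, 12.31, 11.62 and 12.11 in controls. In both genes anti-CD40 replicate 2 was the lowest treated tumor and control replicate 2 the highest control, which are the tumors with the most skin signal of their group. Without these tumors 13 of 14 endothelial genes (92.9%) and 17 of 19 fibroblast genes (89.5%) were higher, with medians of 0.65 and 0.81. In the means of both lists they were also the lowest treated and the highest control tumor. Leaving them out therefore widens the difference by construction, and the part of skin was not tested.

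The endothelial count was 4 without anti-CD40 replicate 1 or control replicate 1, 5 without anti-CD40 replicate 3 and 6 without control replicate 3. The fibroblast count was 14 without anti-CD40 replicate 2, 7 without control replicate 2, 1 without anti-CD40 replicate 1 or anti-CD40 replicate 3, and 0 without anti-CD40 replicate 4, control replicate 3 or control replicate 4. Apln, the apelin ligand of sprouting vessels, was seen outside the lists at 7.90, 7.80, 7.89 and 7.80 in anti-CD40 tumors, against 7.34, 7.47, 7.40 and 7.21 in controls, and was separate in replicate 2 as well.

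**Figure D4:**
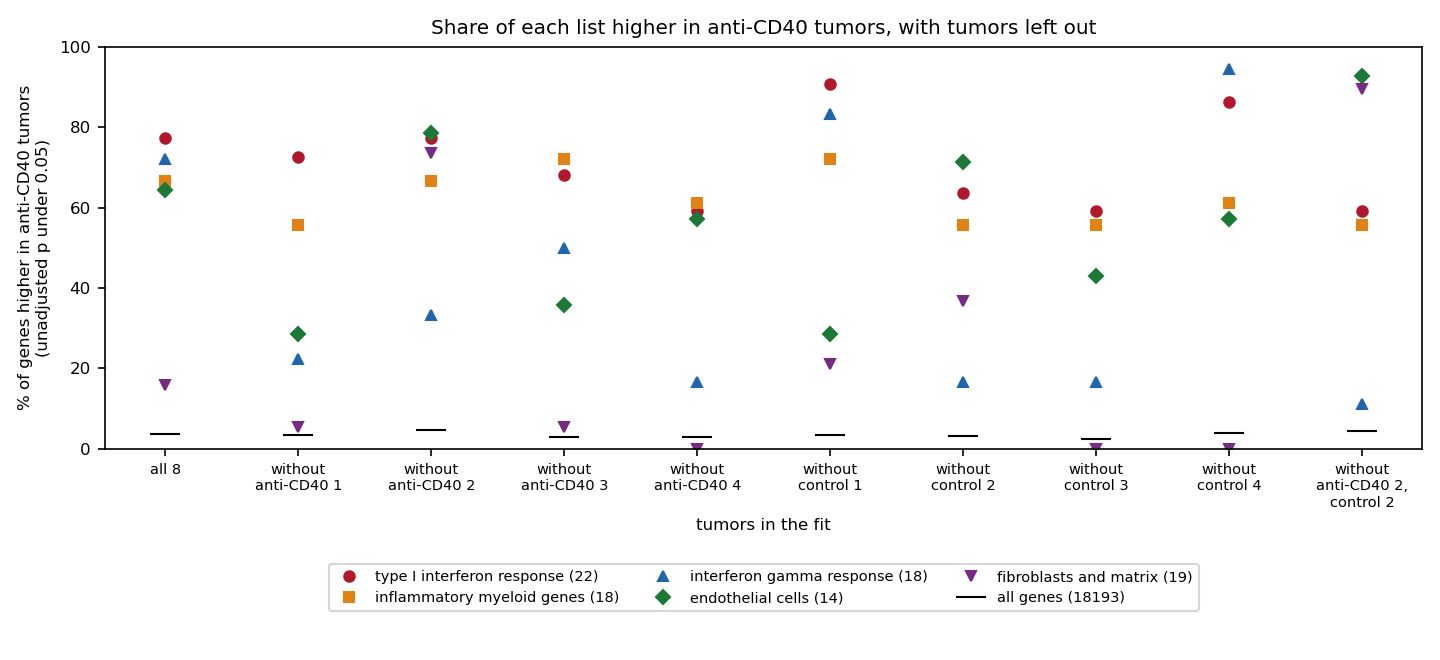
Percent of the genes of 5 lists, and of all 18193 genes (dash), that were higher in anti-CD40 tumors at an unadjusted p under 0.05 (y axis) with all 8 tumors, with each tumor left out in turn and without the skin-rich tumors (x axis). The type I interferon list holds between 13 and 20 of 22 higher genes and the inflammatory myeloid list between 10 and 13 of 18, whereas the IFNγ list holds between 2 and 17 of 18 genes and the fibroblast list between 0 and 17 of 19.

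Among genes without overlap at an unadjusted p under 0.01, Cd83 was the only one of the 12 with the largest change below 0 that belonged to a list. Bex1, a neuronal adaptor gene, was at 3.18, 3.54, 3.79 and 3.55 in anti-CD40 tumors, against 3.88, 5.02, 4.48 and 4.94 in controls, a difference of -1.07 ± 0.24 (SE). In GEM/anti-CD40 replicate 4, the single tumor where muscle genes averaged 11.59, Bex1 was at 8.07, against 3.14 to 3.58 in the other tumors of that group. The part of muscle in the change of Bex1 was not tested. Ptgds, prostaglandin D synthase, was at 9.72, 10.00, 9.21 and 9.65 in anti-CD40 tumors, against 10.56, 10.31, 10.54 and 10.34 in controls. Fhl1, a LIM domain protein abundant in muscle, was at 7.78, 7.67, 7.02 and 7.87 in anti-CD40 tumors and at 8.51, 8.47, 8.12 and 8.25 in controls, and its other probe set gave a change of -0.10. Afm, which encodes the vitamin E carrier afamin, differed by -0.60. Of 5 heavy chain genes of inter-alpha-trypsin inhibitor, a family picked after its values had been seen, 3 were lower. The fibrocystin gene Pkhd1, also picked after its values had been seen, was at 8.00, 8.30, 7.92 and 8.15 in anti-CD40 tumors, against 8.68, 8.42, 8.53 and 8.62 in controls. Itih5, 1 of these heavy chains, was at 6.33, 5.99, 6.18 and 6.32 in anti-CD40 tumors, against 6.84, 7.34, 6.87 and 6.45 in controls.

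None of 23 mitotic cell cycle genes and none of 24 DNA replication genes was higher or lower, with medians of 0.01 and -0.01. Mitotic genes averaged 8.80, 8.80, 9.49 and 9.23 in anti-CD40 tumors, against 8.77, 8.85, 8.98 and 9.63 in controls. The medians of cholesterol biosynthesis (-0.08) and oxidative phosphorylation (-0.04) also lay near that of all genes. Of 15 genes downstream of MEK and ERK 1 was higher, with a median of 0.15, and of 17 hypoxia and glycolysis genes 2 were higher, with a median of 0.09.

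The same genes were read in the GEM-treated mice, in which 4 tumors given GEM/anti-CD40 Ab were compared with 4 given GEM. These arrays share no tumor with those above. GEM replicate 3 and GEM replicate 4 share an animal number in their labels. Their values differed by an SD of 0.26 over all probe sets, within the 0.211 to 0.418 of other pairs of arrays of a group. The pair had the most identical values of all such pairs (1206). These values cannot show whether both arrays came from the same mouse, and the counts below treat them as separate. No probe set passed an adjusted p under 0.05 by limma (0 of 45037, 0%), with a lowest adjusted p of 0.197 and 5211 probe sets at an unadjusted p under 0.05, and 6.67% of genes were higher and 6.09% lower in GEM/anti-CD40 tumors. Of the 641 genes higher without GEM, 526 (82.1%) had a change above 0 with GEM, against 42.9% of all genes, and 307 (47.9%) were higher. These 307 made up 25.3% of the genes higher with GEM. Of the 681 lower without GEM, 476 (69.9%) had a change below 0 with GEM, against 56.2% of all genes, and 113 (16.6%) were lower, which was 10.2% of the genes lower with GEM. Across the 18193 genes, which are not independent, the changes without and with GEM had a Pearson r of 0.50.

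The 12 plotted genes with the largest change above 0 without GEM were all higher with GEM, with a median change of 2.31. Saa3 was at 13.04, 11.63, 9.10 and 10.68 in GEM/anti-CD40 tumors, against 6.24, 6.47, 7.15 and 6.32 in GEM tumors. Of the 12 plotted genes with the largest change below 0, 9 had a change below 0 with GEM and 4 were lower, with a median of -0.25. Cd83 was at 7.57, 7.34, 6.61 and 7.34 in GEM/anti-CD40 tumors and at 6.90, 7.27, 7.31 and 7.55 in GEM tumors, a change of -0.04, and the difference between the changes with and without GEM was 0.96 ± 0.36 (SE; adjusted p = 0.89 by limma). Fcrls was lower in both settings, with 6.13, 6.44, 6.33 and 6.35 in GEM/anti-CD40 tumors against 6.93, 6.69, 7.34 and 7.29 in GEM tumors.

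Among the lists, IFNγ response genes were higher in 18 of 18 with GEM (median 2.07), type I interferon genes in 21 of 22 (1.32), inflammatory myeloid genes in 12 of 18 (1.16), MHC class I genes in 12 of 12 (1.04) and MHC class II genes in 9 of 11 (0.89). The 2 comparisons have different controls, and IFNγ response genes averaged 7.82 ± 0.67 in GEM tumors and 8.42 ± 0.96 in control tumors (SD, n = 4 arrays each). CD40 and NF-kB signaling genes were higher in 11 of 18 with GEM, with a median of 0.26, and Cd40 itself differed by 1.25. An interaction term in a fit of the 16 arrays asked whether the anti-CD40 change of any gene differed with GEM. No probe set passed an adjusted p under 0.05 (0 of 45037, 0%; limma, lowest adjusted p 0.89), and 2359 had an unadjusted p under 0.05. The 18 skeletal muscle genes had a median change of 1.27 with GEM and none was higher, with GEM/anti-CD40 replicate 4 at 11.59, against 5.14 to 5.99 in the other tumors of its group.

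**Figure D5:**
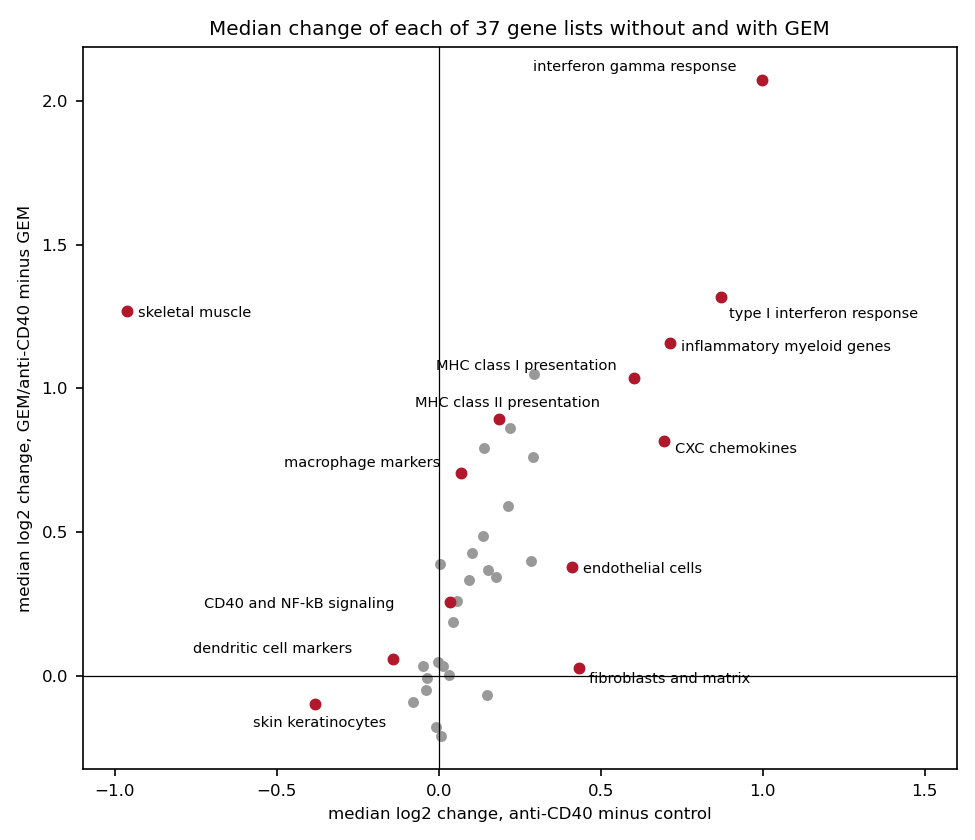
Median change on the log2 scale of each of 37 gene lists in anti-CD40 tumors minus control (x axis) and in GEM/anti-CD40 tumors minus GEM (y axis), with 13 lists named. The interferon lists lie furthest up and to the right (IFNγ 1.00 and 2.07), fibroblast genes have medians of 0.43 and 0.03, and skeletal muscle has opposite signs (-0.96 and 1.27).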

How the data were processed

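Whole PDA30364 tumors were measured on 16 Affymetrix mouse arrays, 4 per group, with groups and replicate numbers taken from the labels. The authors made the deposited log2 values with RMA (background correction, quantile normalization, probe summary), and the files hold 2 decimals. The RMA version, the set of arrays it was run on and scan dates were not given in the sources used here. RMA pulls the arrays to a common distribution, so a shift of most genes would not be seen, and array medians lay between 5.60 and 5.66. The labels number each mouse, except that GEM replicates 3 and 4 share a number, and p-values measure the spread between these tumors. The number of arrays, 4 per group, limits the precision.

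Of 45101 probe sets, 64 that control the array were removed. Of the 45037 tested, 34945 had a single symbol, 932 several and 9160 were not listed and are unnamed here. Genes were represented by the probe set with the highest mean over the 16 arrays. Groups were compared with limma 3.58.1 in R 4.3.3, without covariate, with Benjamini-Hochberg adjustment over all probe sets, two-sided, and checked on simulated data. The interaction used all 16 arrays. The members and the 37 gene lists were chosen with earlier results of these data known, and 593 of 654 list entries were measured. Named genes were, in each direction, the 12 with the largest change among those without overlap at an unadjusted p under 0.01 (no probe set having passed), up to 4 members per list with the smallest p, and Cd40, Ptprc, Ifng, Il12b, Epcam and Krt19. Other genes and the families were picked after their values had been seen. List counts with tumors left out, other normalizations, array weights, a filter on dim probe sets, other probe set summaries and a replicate block were tried. Tables were handled in Python 3.11.15 with pandas 2.3.3.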

Additional observations from a re-analysis of the deposited data

Results flagged for a closer look

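In groups of 4 tumors, a highest or lowest value that stood further from the other 3 than Dixon's critical value was picked out. This was the case for 25 of 396 groups of gene or list values (6.31%), where chance flags about 1 in 20.

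In anti-CD40 replicate 4, Ptprc (10.36, others 9.25 to 9.34), Itgb2 (9.66), Itgal (8.37), Cd27 (3.79), Psmb8 (11.10), Ctss (12.46) and Acod1 (8.68) stood high, as did the means of the dendritic cell markers (6.86) and the inflammatory myeloid genes (7.70), while Lcn2 stood low (9.5, others 10.10 to 10.19). In anti-CD40 replicate 2, Krt10 (7.69) and the skin keratinocyte mean (6.89) stood high, and Icam2 (5.84) and the mean of the alternatively activated macrophage genes (6.34) stood low. Anti-CD40 replicate 3 had high Vsig4 (4.07) and Dusp5 (9.37), and anti-CD40 replicate 1 high Vwf (7.97). Among the controls, replicate 2 stood high for Krt77 (9.03, others 4.70 to 4.76), Krt10 (11), the skin keratinocyte mean (8.46) and Cxcl1 (9.52). Control replicate 3 had high Vsig4 (4.26) and low Spry4 (6.70), and control replicate 4 had low Ocln (9.12) and a high mean of DNA replication genes (9.48).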

How the results depend on the processing

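The number of probe sets past an adjusted p under 0.05 in anti-CD40 against control tumors was 0 in 14 of 17 alternatives, 3 without the 2 arrays with skin genes (Ccl7, Tgfbr3 and Sfrp2), and 0 to 2 when 1 tumor was left out (2 without control replicate 1, among them Olr1, and 2 without anti-CD40 replicate 2, Ccl7 and Rnf125). For Ccl7, the fits that pass leave out its lowest treated value. A required log2 change of at least 1 is among the alternatives and could only give 0, since no probe set passed in the main fit. The number at an unadjusted p under 0.05 was 1517 with dim probe sets left out, where fewer were tested, and 1984 to 3553 with 1 tumor left out. For GEM/anti-CD40 against GEM, 0 to 1 probe sets passed with 1 tumor left out (1 each without GEM replicate 2, GEM/anti-CD40 replicate 3 or GEM/anti-CD40 replicate 4) and 0 otherwise, also with GEM replicates 3 and 4 counted as 1 mouse, and for the interaction 0 passed throughout. Same-numbered tumors correlated in their deviations from the group means by 0.06, 0.14, -0.04 and 0.21, and not every tumor correlated best with its own number. These correlations cannot show whether same-numbered tumors shared a batch or cage, which the labels do not give. With a replicate block, 0 probe sets passed and 2538 had an unadjusted p under 0.05, against 2739 without it. Counts in some lists moved more with the block. Higher T cell markers went from 1 to 8 of 19 and higher MHC class I genes from 4 to 10 of 12. Higher costimulation genes went from 2 to 5 of 17 and lower muscle genes from 10 to 15 of 18. Other lists lost genes, with fibroblast genes going from 3 to 1 of 19 and death genes from 10 to 9 of 16. Of 161 named genes, 149 kept their direction in every alternative. Much of this was fixed by how they were named. The 24 plotted genes were chosen without overlap, so leaving out a tumor could not turn them. Most others had the smallest p of their list. The fit of all 16 arrays, the other variance prior, the filter on dim probe sets and the replicate block also leave the change itself as it was. Changes turned for Ighm (0.0236) and Lipe (-0.0512) with the mean of all probe sets and for Tnfrsf17 (0.0233) and Cidec (-0.0533) without the skin arrays. With 1 tumor left out they turned within the ranges of Elf3 (-0.3375 to 0.0125), Ocln (-0.5625 to 0.0775), Lipe (-0.0125 to 0.1142), Alas2 (-0.005 to 0.1817), Ndc80 (-0.29 to 0.04), Cdc25c (-0.0475 to 0.4183), Aurkb (-0.0058 to 0.3242), Aurka (-0.0308 to 0.3775) and Epcam (-0.0742 to 0.4725), and the cause was not tested. Low signals limit Ifng, Xcr1, Il12b, Il2ra, Tbx21, Bex1 and the B cell genes, among others.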
